A study of Mus musculus with 2 samples.

Results

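The genes described here are the cyclins, the cyclin-dependent kinases (CDKs), the CDK inhibitors, the E2F transcription factors and the pocket proteins of the retinoblastoma family. They were taken from the deposited tables by symbol alone, which gave 61 genes of 22558. RNA was sequenced from 2 libraries of cells that were dissociated from mammary tumours in the inbred mouse strain FVB and purified by flow cytometry at once, with no treatment. The groups are the tumour-initiating cells (TIC) and the non-tumorigenic cells (NTC). The labels do not name the tumour model, the age of the mice, the number of tumours behind each library or the gate of the sort. Each group is 1 library, so there are no replicates, and no test, SD or p-value is possible. Every difference below is between these 2 libraries.

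Cyclins bind CDKs and switch them on. In the G1 phase of the cell cycle, D-type cyclins with CDK4 or CDK6 and then E-type cyclins with CDK2 phosphorylate the pocket proteins, which releases E2F factors to drive genes of DNA replication, and A- and B-type cyclins with CDK1 carry the cell into mitosis. Inhibitors of the INK4 family act on CDK4 and CDK6, and those of the Cip/Kip family bind a wider range of cyclin-CDK complexes. In the mammary gland cyclin D1 is known for its part in the growth of the milk-producing lobules and in breast tumours.

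Levels are in FPKM (fragments scaled to transcript length and library size), so levels can be compared between genes. Ratios are log2((TIC + 1)/(NTC + 1)), which understates differences of low genes. A gene is called measured where its mean over both libraries reaches 1 FPKM. From the steps between low values, a level of 1 FPKM was put at roughly 21.0 reads for each kb of sequence in the TIC library, against 21.6 in the NTC library. Markers of the basal mammary layer were at least 2-fold higher in TIC for 10 of 10 genes (summed level 4233 FPKM in TIC and 41.2 FPKM in NTC), and luminal markers were at least 2-fold lower for 13 of 13 (292.1 FPKM in TIC and 3980 FPKM in NTC). All 14 leukocyte markers, Ptprc among them, and all 6 endothelial markers were below 2 FPKM in both libraries. The 7 fibroblast markers summed to 173.8 FPKM in TIC, against 2.44 FPKM in NTC. All 4 measured fibroblast markers were at least 2-fold higher in TIC, namely Dcn (151.8 FPKM in TIC and 1.51 FPKM in NTC), Col1a2 (9.56 FPKM in TIC and 0.0119 FPKM in NTC), Pdgfra (8.83 FPKM in TIC and 0.513 FPKM in NTC) and Pdgfrb (2.44 FPKM in TIC and 0.0701 FPKM in NTC), while Col1a1, Col3a1 and Lum were below 1 FPKM in both. The 6 erythroid markers summed to 0.524 FPKM in TIC and 6.20 FPKM in NTC, and the 4 adipocyte markers to 0.131 FPKM in TIC and 0 in NTC. The part of lineage and of fibroblast RNA in the results below was not tested. Since these are bulk samples, fewer cells that express a gene and less of its RNA per cell cannot be told apart.

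Of the 61 genes, 57 were measured. At least 2-fold higher in TIC were 7 (12.3%), where 14.6% of all 12004 measured genes were. At least 2-fold lower were 9 (15.8%), where 13.8% of all measured genes were. Both shares are near those of the whole transcriptome, so the gene set as a whole did not stand out in either direction. Its median log2 ratio was -0.18, and that of all measured genes was -0.16. The ratios of 29 of the 57 genes lay below that of the median gene. In 3 families, the D-type cyclins, the Cip/Kip inhibitors and the INK4 inhibitors, some members were at least 2-fold higher and others at least 2-fold lower, and the other families had calls in 1 direction at most. The genes higher in TIC were Ccnd2, Cdkn1c, Cdkn2b, Cdk14, Cdkn2a, Cdk17 and Ccng2, and those lower were Rb1, Cdk6, E2f2, Cdkn2c, Cdkn3, Cdk19, Ccnb2, Cdkn1b and Ccnd1. Nearest to the 2-fold line were Ccnd1, just past it with a log2 ratio of -1.08, and E2f5, just within it with -0.94.

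**Figure D1:**
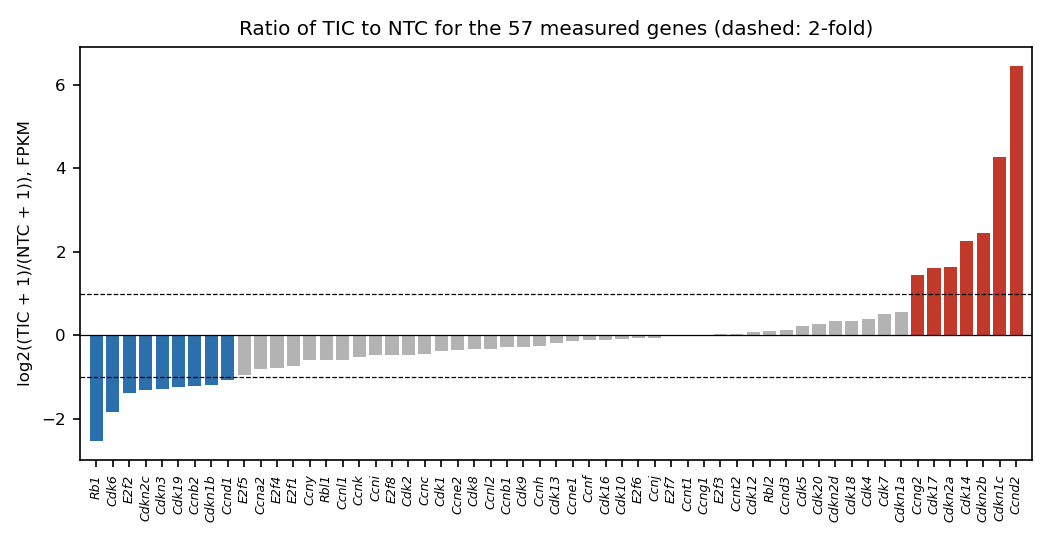
Each bar is the log2((TIC + 1)/(NTC + 1)) ratio of FPKM for 1 of the 57 measured genes, in order of the ratio; red bars are at least 2-fold higher in TIC, blue bars at least 2-fold lower and grey bars within 2-fold. The right end, led by Ccnd2 at 6.45, reaches farther from 0 than the left end, led by Rb1 at -2.53.

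The D-type cyclins, which link growth signals to the cell cycle, showed the widest difference within a family. Ccnd2, cyclin D2, had 98.2 FPKM in TIC and 0.133 FPKM in NTC, a log2 ratio of 6.45 (chromosome 6, 127075727 to 127162437, build mm9). It was the fourth highest of the 61 genes in TIC whereas its level in NTC corresponds to only about 2.87 reads per kb of transcript. The locus listed for it also covers 9330179D12Rik, with 0.519 FPKM in TIC and a listed value of 0 in NTC. Ccnd1, cyclin D1, had 327 FPKM in TIC and 692 FPKM in NTC (log2 ratio -1.08; chromosome 7, 152115836 to 152125830, build mm9). Cyclin D1 was nonetheless the highest of the 61 genes in both libraries, and in the order of all genes its level was number 111 in TIC and number 51 in NTC. Scaling the libraries to equal sums of FPKM, or centring on the median gene, left Ccnd1 lower in TIC but within 2-fold (log2 ratios of -0.90 and -0.92). Ccnd3, cyclin D3, had 21.2 FPKM in TIC and 19.5 FPKM in NTC, within 2-fold.

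Summed over the 3 D-type cyclins, the level was 446.2 FPKM in TIC and 711.1 FPKM in NTC. Cyclin D1 made up 73.2% of that sum in TIC and 97.2% in NTC. Cyclin D2 made up 22.0% in TIC and 0.0187% in NTC, and cyclin D3 4.75% in TIC and 2.74% in NTC. The NTC library thus held almost a single D-type cyclin transcript, and the TIC library a mixture of D1 and D2. The level of Ccnd1 was 3.33 times that of Ccnd2 within TIC, against 5211 times within NTC.

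**Figure D2:**
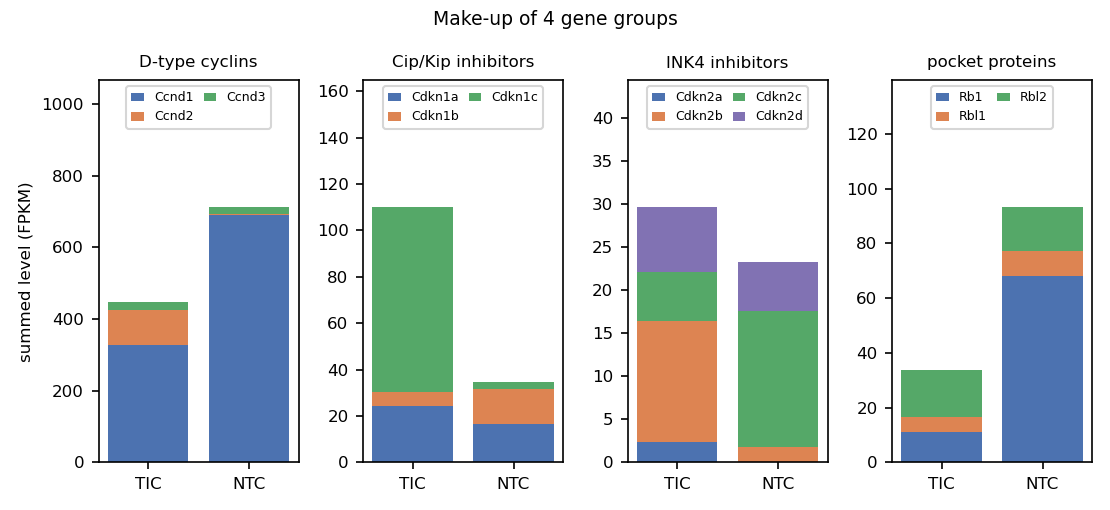
Stacked bars give the summed FPKM of the D-type cyclins, Cip/Kip inhibitors, INK4 inhibitors and pocket proteins in TIC (left bar of each panel) and NTC (right bar), with 1 colour for each gene and a separate linear axis from 0 in each panel. In TIC, Ccnd2, Cdkn1c and Cdkn2b fill segments that are thin in NTC, and the Rb1 segment is 11.0 FPKM in TIC against 68.2 FPKM in NTC.

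The partner kinases of the D-type cyclins also differed in their balance. Cdk4 had 200.3 FPKM in TIC and 152.5 FPKM in NTC, a log2 ratio of 0.39 and so within 2-fold. Cdk6 had 8.88 FPKM in TIC and 34.3 FPKM in NTC (log2 ratio -1.84; chromosome 5, 3344312 to 3522225, build mm9). Cdk4 exceeded Cdk6 in both libraries, by 22.5 times in TIC and by 4.45 times in NTC. Cdk2, the partner of E- and A-type cyclins, had 6.77 FPKM in TIC and 9.76 FPKM in NTC. Cdk1, the kinase of mitosis, had 11.4 FPKM in TIC and 15.1 FPKM in NTC. Neither of them differed by 2-fold.

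Among the pocket proteins, which hold E2F factors inactive, the difference lay in Rb1, the retinoblastoma gene. Rb1 had 11.0 FPKM in TIC and 68.2 FPKM in NTC, a log2 ratio of -2.53, the lowest of the 57 genes (listed locus on chromosome 14, 73595309 to 73725598, build mm9). That locus is also listed for Lpar6, a receptor gene, which had 13.9 FPKM in TIC and 10.5 FPKM in NTC, and for Mir687, listed at 0 in both. The sources do not say how reads were assigned between overlapping genes. Rbl1 (p107) had 5.54 FPKM in TIC and 8.87 FPKM in NTC. Rbl2 (p130) had 17.4 FPKM in TIC and 16.0 FPKM in NTC. Rbl1 and Rbl2 were both within 2-fold. The listed locus of Rbl2 is also that of Aktip, which had 3.25 FPKM in TIC and 16.4 FPKM in NTC. By the listed values, the leading pocket protein transcript in TIC was Rbl2, with 51.3% of the family's sum against 17.2% in NTC. In NTC it was Rb1, which held 73.3% of the sum there against 32.4% in TIC. The sum itself was 33.9 FPKM in TIC and 93.1 FPKM in NTC.

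**Figure D3:**
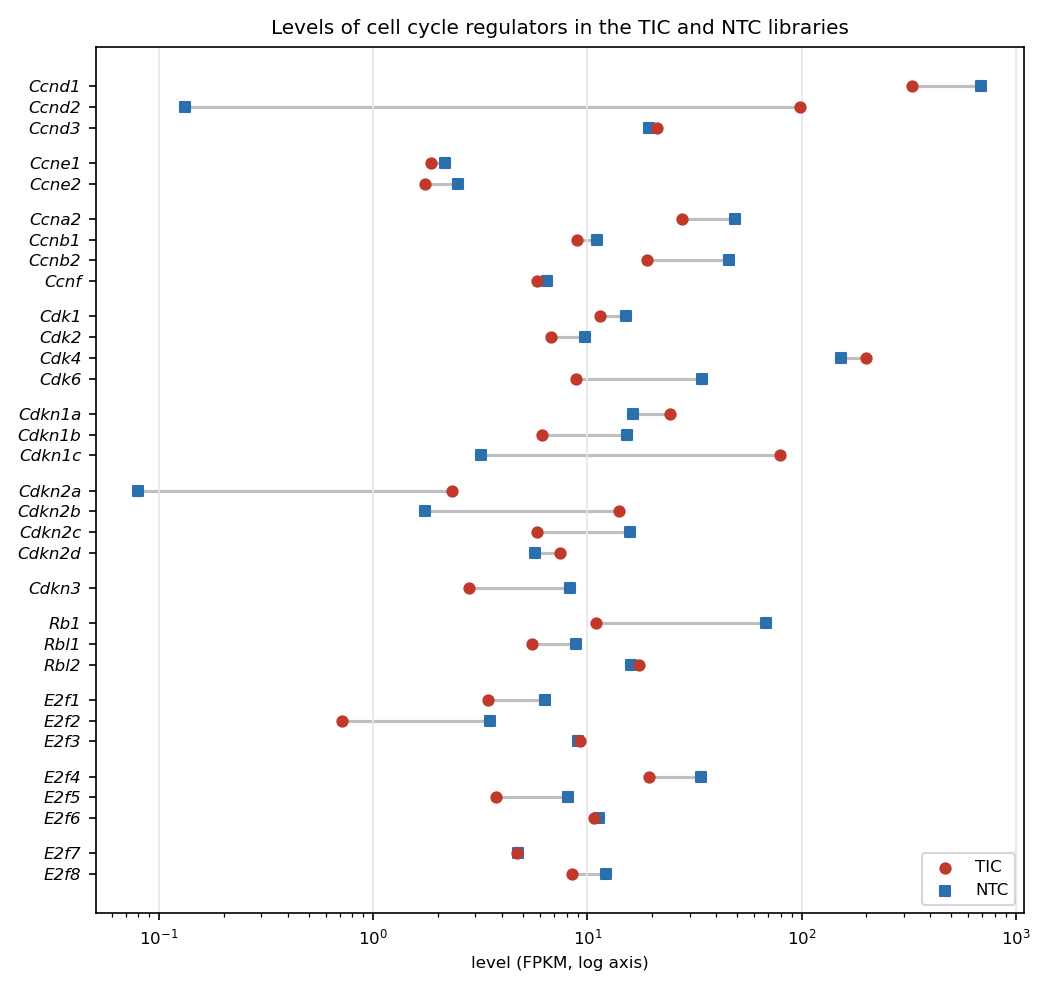
Points give FPKM on a log axis in TIC (red circles) and NTC (blue squares), joined by a grey line. Measured genes are grouped by family from the D-type cyclins to the E2F factors. The CDKs and cyclins of transcription and the remaining CDKs and cyclins are not shown. The longest lines are those of Ccnd2, Cdkn2a and Cdkn1c, all with the TIC point to the right, while most E2F, cyclin and kinase pairs lie close together.

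The Cip/Kip inhibitors went in opposite directions. Cdkn1c (p57) had 79.3 FPKM in TIC and 3.18 FPKM in NTC, a log2 ratio of 4.26 (chromosome 7, 150644244 to 150646955, build mm9). It is an imprinted inhibitor known for its part in differentiation and in the quiescence of stem cells of other tissues. Cdkn1b (p27) had 6.15 FPKM in TIC and 15.3 FPKM in NTC (log2 ratio -1.19). Cdkn1a (p21), a target of p53, had 24.4 FPKM in TIC and 16.4 FPKM in NTC (log2 ratio 0.55), within 2-fold. The family summed to 109.9 FPKM in TIC and 34.8 FPKM in NTC. Cdkn1c made up 72.2% of the sum in TIC and 9.14% in NTC, whereas Cdkn1b made up 5.60% in TIC and 43.8% in NTC.

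The INK4 inhibitors, which act on CDK4 and CDK6, likewise did not share a direction. Cdkn2b (p15) had 14.0 FPKM in TIC and 1.74 FPKM in NTC, a log2 ratio of 2.46 (chromosome 4, 88952198 to 88956941, build mm9). Its neighbour Cdkn2a had 2.34 FPKM in TIC and 0.0798 FPKM in NTC (log2 ratio 1.63; chromosome 4, 88920377 to 88940523). Cdkn2a encodes p16 and, from another first exon and reading frame, the p53 activator p19Arf, and the deposited value per gene does not separate them. Its NTC level corresponds to about 1.72 reads per kb, so the ratio rests on few reads, and with a pseudocount of 5 FPKM it was within 2-fold (0.53). Cdkn2c (p18) went the other way, with 5.79 FPKM in TIC and 15.8 FPKM in NTC (log2 ratio -1.30). Cdkn2d (p19) was within 2-fold, at 7.44 FPKM in TIC and 5.71 FPKM in NTC. The 4 genes summed to 29.6 FPKM in TIC and 23.3 FPKM in NTC, but Cdkn2b held 47.4% of the sum in TIC against 7.46% in NTC, and Cdkn2c 19.6% in TIC against 67.7% in NTC.

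Of the 4 measured A-, B- and F-type cyclins of the later cell cycle phases, 1 was at least 2-fold lower in TIC, where 13.8% of all measured genes were. Ccna2, cyclin A2 of S phase and G2, had 27.6 FPKM in TIC and 48.7 FPKM in NTC (log2 ratio -0.80). The listed locus of Ccna2 is also that of Exosc9, which had 6.85 FPKM in TIC and 8.66 FPKM in NTC. Ccnb2, a mitotic cyclin, had 18.99 FPKM in TIC and 45.6 FPKM in NTC (log2 ratio -1.22). Ccnb1, the other main mitotic cyclin, had 8.90 FPKM in TIC and 11.0 FPKM in NTC, but its row names several gene identifiers. Of these, only Ccnb2 passed 2-fold. RefSeq lists pseudogenes of Ccnb1, Ccnb2 and Ccnd3, and the sources do not say how reads shared with such copies were handled, so these values are uncertain. Ccnf, the F-box protein of a ubiquitin ligase of G2, had 5.84 FPKM in TIC and 6.45 FPKM in NTC, a log2 ratio of -0.12 that became 0.04 when centred on the median gene. Cdkn3, a phosphatase that acts on CDK1 and CDK2 and peaks with mitotic genes, had 2.79 FPKM in TIC and 8.29 FPKM in NTC (log2 ratio -1.29). The E-type cyclins of the G1 to S transition were low and within 2-fold, with Ccne1 at 1.87 FPKM in TIC and 2.15 FPKM in NTC and Ccne2 at 1.74 FPKM in TIC and 2.48 FPKM in NTC. Ccna1 and Ccnb3, both known from germ cells, were listed at 0 in both libraries.

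Of the 8 E2F factors, which the pocket proteins control, 7 were within 2-fold. E2f2, of the activating group, had 0.716 FPKM in TIC and 3.50 FPKM in NTC (log2 ratio -1.39), and its row names several gene identifiers. E2f1 had 3.44 FPKM in TIC and 6.35 FPKM in NTC (log2 ratio -0.73). E2f3 had 9.24 FPKM in TIC and 9.03 FPKM in NTC, so the 3 activators ran from at least 2-fold lower in TIC to level. Among the repressive members, E2f4 had 19.4 FPKM in TIC and 34.0 FPKM in NTC, the highest level of any E2F in both libraries, and its row also names several identifiers. E2f5 had 3.74 FPKM in TIC and 8.12 FPKM in NTC (log2 ratio -0.94), and E2f6 had 10.7 FPKM in TIC and 11.4 FPKM in NTC. The atypical repressors E2f7 (4.67 FPKM in TIC and 4.75 FPKM in NTC) and E2f8 (8.50 FPKM in TIC and 12.2 FPKM in NTC) were within 2-fold. In all, 1 of 8 E2F genes was lower by at least 2-fold, a share near the 13.8% of all measured genes. None was higher by as much, where 14.6% of all measured genes were. With so few genes, these counts do not set the E2F genes apart.

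Promoters of mitotic genes often carry CCAAT boxes, bound by NF-Y, and a CHR element (TTTGAA), bound by the DREAM complex, to which p107 or p130 and E2F4 belong. Windows from 250 bases before to 50 after the gene start were found for 48 of the 61 genes in a RefSeq table of build GRCm38.p6. The stretches shown, from 160 bases before the start to 25 after it, are those of 4 of the 8 genes with both motifs in the same window. Of these 4, Ccnb2, Cdkn3 and E2f2 were the genes at least 2-fold lower in TIC, and Cdk1, the kinase of mitosis, was within 2-fold. The other 4 with both motifs were E2f3, E2f8, Ccnf and Cdk16, all within 2-fold. Capitals mark the CCAAT box, the CHR element and the E2F site in either orientation, so a box on the other strand reads ATTGG. None of the marked motifs overlap. Ccnb2 is at chr9:70421530-70421714 on the minus strand, Cdkn3 at chr14:46760381-46760565 on the plus strand, Cdk1 at chr10:69352888-69353072 on the minus strand and E2f2 at chr4:136180622-136180806 on the plus strand.
Ccnb2: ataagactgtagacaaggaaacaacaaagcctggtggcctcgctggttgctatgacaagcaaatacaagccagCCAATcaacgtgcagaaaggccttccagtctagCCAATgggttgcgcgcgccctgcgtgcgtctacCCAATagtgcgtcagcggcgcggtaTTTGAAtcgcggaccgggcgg
Cdkn3: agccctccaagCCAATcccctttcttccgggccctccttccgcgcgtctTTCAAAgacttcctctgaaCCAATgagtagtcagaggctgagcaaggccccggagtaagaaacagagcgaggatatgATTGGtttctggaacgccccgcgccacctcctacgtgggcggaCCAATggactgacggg
Cdk1: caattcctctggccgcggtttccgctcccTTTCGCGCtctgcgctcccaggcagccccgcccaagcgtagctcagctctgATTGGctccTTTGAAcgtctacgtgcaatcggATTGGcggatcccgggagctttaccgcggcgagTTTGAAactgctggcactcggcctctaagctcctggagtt
E2f2: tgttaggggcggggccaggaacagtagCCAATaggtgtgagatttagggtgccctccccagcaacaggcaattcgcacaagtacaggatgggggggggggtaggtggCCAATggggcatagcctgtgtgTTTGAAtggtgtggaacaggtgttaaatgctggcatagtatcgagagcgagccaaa
The stretch of Ccnb2 holds 3 CCAAT boxes and 1 CHR element, that of Cdkn3 4 and 1, that of Cdk1 2 and 2 and that of E2f2, from 1 of its 2 windows in the table, 2 and 1. Of the stretches shown, only that of Cdk1 also holds an E2F site. The other window of E2f2, upstream and starting at 136172024, holds a CCAAT box and an E2F site but no CHR element. E2f2 thus counts among the genes with both motifs only through the downstream window shown.

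Over the table, a CCAAT box was found in 37.4% of all 32851 windows, a CHR element in 17.9%, both in 6.95%, and an E2F site (TTTCGCGC, TTTGGCGC, TTTCCCGC or TTTGCCGC) in 2.26%, always on either strand. Of the 48 genes with a window, 26 had a CCAAT box, 11 a CHR element, 8 both and 7 an E2F site. Counted by window, as for the whole table, these were 49.1%, 20.0%, 14.5% and 12.7% of 55 windows, since some genes have more than 1. Among the genes at least 2-fold lower in TIC, 6 of 9 had a window, and 5 of these had a CCAAT box and 3 both motifs (37.5% of 8 windows). Among those at least 2-fold higher, 4 of 7 had a window, and 1 had a CCAAT box and none both, over 5 windows. These are matches of letters in short windows and not measured binding sites. The genes with no window in the table were Ccna2, Ccnd1, Ccnd2, Ccne2, Ccnh, Ccny, Cdk5, Cdk17, Cdk19, Cdkn1c, E2f4, E2f5 and Rb1.

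The CDKs and cyclins of transcription, which act on RNA polymerase II or the Mediator complex, were mostly within 2-fold between the libraries. Of 13 genes, 12 were within 2-fold and 1 was lower in TIC by at least 2-fold, where 13.8% of all measured genes were. None was higher by as much, where 14.6% of all measured genes were. The exception was Cdk19, a kinase of Mediator, with 6.33 FPKM in TIC and 16.2 FPKM in NTC (log2 ratio -1.23). Its paralog Cdk8 had 8.54 FPKM in TIC and 11.1 FPKM in NTC, and their partner Ccnc had 4.60 FPKM in TIC and 6.62 FPKM in NTC. Rows of Cdk8, Ccnc and Cdk9 name several identifiers. The elongation kinase Cdk9 had 9.35 FPKM in TIC and 11.5 FPKM in NTC, and its cyclins were level, with Ccnt1 at 43.5 FPKM in TIC and 43.3 FPKM in NTC and Ccnt2 at 16.9 FPKM in TIC and 16.5 FPKM in NTC. Cdk12 had 25.9 FPKM in TIC and 24.4 FPKM in NTC, Cdk13 17.4 FPKM in TIC and 19.8 FPKM in NTC, and their partner Ccnk 27.9 FPKM in TIC and 40.8 FPKM in NTC. Of the CDK-activating kinase, Cdk7 had 9.73 FPKM in TIC and 6.53 FPKM in NTC, and Ccnh 7.13 FPKM in TIC and 8.65 FPKM in NTC. The listed locus of Cdk7 is also that of Ccdc125, which had 9.21 FPKM in TIC and 4.79 FPKM in NTC. The cyclins L of splicing, Ccnl1 and Ccnl2, had 18.7 and 20.6 FPKM in TIC, against 28.5 and 26.0 FPKM in NTC.

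Of the remaining genes, 1 of 5 measured cyclins and 2 of 7 measured CDKs were higher in TIC by at least 2-fold, and none was lower by as much. Among all measured genes, 14.6% were higher and 13.8% lower by as much. With so few genes, these counts do not set the group apart. Cdk14, a kinase that with cyclin Y phosphorylates the Wnt co-receptor LRP6, had 26.4 FPKM in TIC and 4.77 FPKM in NTC (log2 ratio 2.25; chromosome 5, 4803385 to 5380251, build mm9). Its cyclin, Ccny, had 20.0 FPKM in TIC and 30.9 FPKM in NTC, within 2-fold. Cdk17, a kinase of the PCTAIRE group, had 20.3 FPKM in TIC and 6.01 FPKM in NTC (log2 ratio 1.60). Its listed locus is also that of Mir1931, which had 4.15 FPKM in TIC and a listed value of 0 in NTC. The other PCTAIRE kinases were within 2-fold, with Cdk16 at 55.9 FPKM in TIC and 60.7 FPKM in NTC and Cdk18 at 14.9 FPKM in TIC and 11.4 FPKM in NTC. Ccng2, an atypical cyclin linked to cell cycle arrest, had 21.0 FPKM in TIC and 7.12 FPKM in NTC (log2 ratio 1.44), while its paralog Ccng1, a p53 target, was level at 36.7 FPKM in TIC and 36.2 FPKM in NTC. Ccni, the third highest gene of the set in TIC and the second in NTC, had 115.2 FPKM in TIC and 160.6 FPKM in NTC. Also within 2-fold were Ccnj (2.90 FPKM in TIC and 3.09 FPKM in NTC) and Cdk5 (6.80 FPKM in TIC and 5.68 FPKM in NTC). Cdk10 (9.77 FPKM in TIC and 10.5 FPKM in NTC) and Cdk20 (2.12 FPKM in TIC and 1.59 FPKM in NTC) were as well. Besides Ccna1 and Ccnb3, the genes below 1 FPKM were Ccno and Cdk15, with 0.207 and 0.109 FPKM in TIC and listed at 0 in NTC.

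The genes that these regulators act on were compared in lists chosen for function. DNA replication genes driven by E2F were lower in TIC for 31 of 32 measured genes. Of the 32, 17 (53.1%) were lower by at least 2-fold, where 13.8% of all measured genes were. None was higher by as much, where 14.6% of all measured genes were. The median log2 ratio of the list was -1.02, beside -0.16 for all measured genes. Of the 32 ratios, 31 lay below that of the median gene. Mcm6 of the replicative helicase had 16.1 FPKM in TIC and 73.5 FPKM in NTC, DNA ligase 1 (Lig1) 14.0 FPKM in TIC and 56.4 FPKM in NTC, and the primase Prim1 6.98 FPKM in TIC and 29.0 FPKM in NTC. The exception was Gins3, at 2.94 FPKM in TIC and 2.41 FPKM in NTC. Mitosis genes were lower in TIC for 29 of 30, but only 4 (13.3%, near the 13.8% of all measured genes) by at least 2-fold. The median of this list was -0.60, and 28 of the 30 ratios lay below that of the median gene. Birc5, survivin, had 14.1 FPKM in TIC and 33.7 FPKM in NTC, Pttg1, securin, 8.14 FPKM in TIC and 18.7 FPKM in NTC, and Nusap1 of the spindle 10.6 FPKM in TIC and 23.6 FPKM in NTC, whereas Nuf2 of the kinetochore had 7.26 FPKM in TIC and 6.13 FPKM in NTC. Among the genes described above, Ccna2, Ccnb2 and Cdkn3 had ratios at or beyond the median of the mitosis list, and Ccnb1, Ccnf and Cdk1 had ratios nearer to 0.

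**Figure D4:**
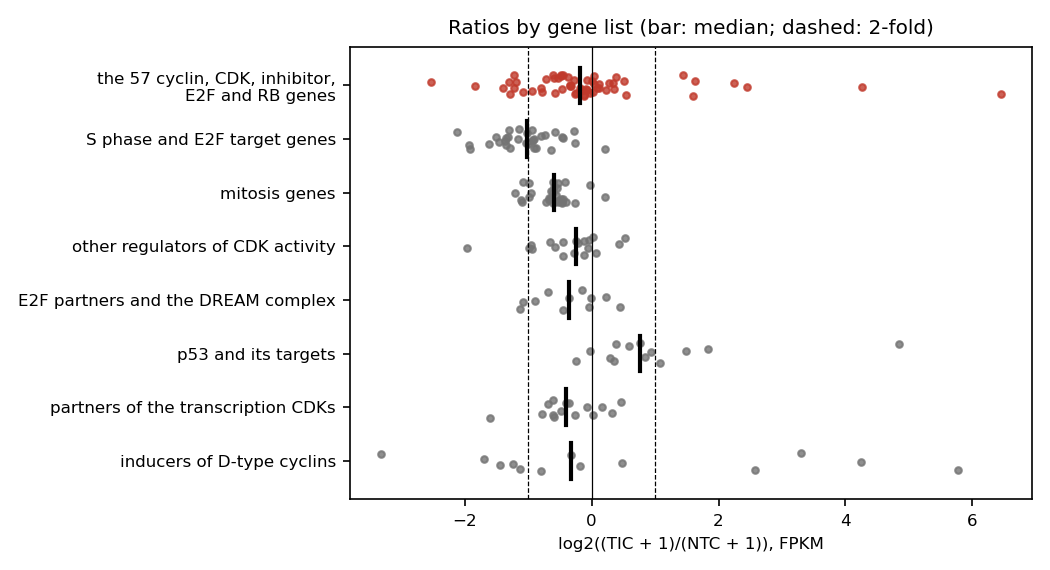
Each point is the log2((TIC + 1)/(NTC + 1)) ratio of a measured gene, with the 57 cyclin, CDK, inhibitor, E2F and RB genes on top in red and 7 lists of related genes below in grey; black bars are medians, and dashed lines mark 2-fold. The list of S phase genes has its median at -1.02, and that of p53 and its targets, at 0.76, has the only median above 0.

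Of 19 measured other regulators of CDK activity, 1 (5.26%) was lower in TIC by at least 2-fold, where 13.8% of all measured genes were. None was higher by as much, where 14.6% of all measured genes were. Ratios were below 0 for 15 of the 19, but below that of the median gene for only 11. The median of the list was -0.25, beside -0.16 for all measured genes. The gene past 2-fold was Pkmyt1, a kinase that inhibits CDK1, with 3.71 FPKM in TIC and 17.4 FPKM in NTC. Cdc25c, the phosphatase that undoes this step, had 5.83 FPKM in TIC and 12.3 FPKM in NTC, and Mnat1, the third subunit of the CDK-activating kinase, 6.30 FPKM in TIC and 13.5 FPKM in NTC, both just within 2-fold. Skp1a (113.4 FPKM in TIC and 78.8 FPKM in NTC), a ubiquitin ligase subunit, and Cables2 (19.9 FPKM in TIC and 14.5 FPKM in NTC) had the largest ratios the other way. Of 11 E2F partners and DREAM subunits, 2 (18.2%, where 13.8% of all measured genes were) were lower by at least 2-fold and none higher by as much (median -0.36). They were Mybl2, B-Myb, with 2.51 FPKM in TIC and 6.67 FPKM in NTC, and Lin37, with 7.84 FPKM in TIC and 17.7 FPKM in NTC. Neither was past 2-fold with a pseudocount of 5 FPKM, with centring on the median gene or with equal sums, each of which left 0 genes of the list lower by 2-fold. Lin9 had 4.10 FPKM in TIC and 8.51 FPKM in NTC, while Lin52 (2.06 FPKM in TIC and 1.24 FPKM in NTC) and Tfdp2 (11.3 FPKM in TIC and 9.49 FPKM in NTC) were slightly higher. Of 15 measured partners of the transcription CDKs, 1 (6.67%) was lower by at least 2-fold and none higher by as much (median -0.40). Among all measured genes, 13.8% were lower and 14.6% higher by as much. The partner past 2-fold was the elongation factor Ell2, with 4.15 FPKM in TIC and 14.6 FPKM in NTC. Ercc2 (7.21 FPKM in TIC and 13.0 FPKM in NTC) and Ell (9.84 FPKM in TIC and 16.4 FPKM in NTC) followed within 2-fold, and Med13 (39.8 FPKM in TIC and 28.6 FPKM in NTC) and Mepce (19.3 FPKM in TIC and 15.2 FPKM in NTC) lay on the other side.

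The list of p53 and its targets, which leaves out the targets Cdkn1a and Ccng1 described above, had higher values in TIC for 11 of 13 measured genes. By at least 2-fold, 4 (30.8%) were higher, where 14.6% of all measured genes were. None was lower by as much, where 13.8% of all measured genes were. The median was 0.76, and 1 of the 13 ratios lay below that of the median gene of all measured genes. Phlda3, an inhibitor of AKT signalling, had 81.9 FPKM in TIC and 1.87 FPKM in NTC. Sesn1, a stress-induced sestrin, had 15.5 FPKM in TIC and 3.66 FPKM in NTC, and the kinase Plk2 104.7 FPKM in TIC and 36.6 FPKM in NTC. Cdkn1a and Ccng1, with log2 ratios of 0.55 and 0.018, both lay below the median of that list. Btg2 (51.2 FPKM in TIC and 60.8 FPKM in NTC) and Mdm4 (17.9 FPKM in TIC and 18.3 FPKM in NTC) were the 2 genes lower in TIC, both by little.

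Genes of mitogen, Wnt and BMP responses, several of which encode known regulators of D-type cyclins, differed widely in both directions. At least 2-fold higher in TIC were 4 of 13 (30.8%), and 5 (38.5%) were lower by as much, around a median of -0.32. Among all measured genes, 14.6% were higher and 13.8% lower by as much. Mycn, N-Myc, had 67.9 FPKM in TIC and 0.255 FPKM in NTC, and Tcf7, a factor and target of Wnt signals, had 222.9 FPKM in TIC and 10.8 FPKM in NTC. The inhibitors of differentiation factors Id2 (7.26 FPKM in TIC and 81.1 FPKM in NTC), Id3 (3.49 FPKM in TIC and 13.6 FPKM in NTC) and Id1 (0.144 FPKM in TIC and 2.12 FPKM in NTC) were lower in TIC. Their part in the D-type cyclin levels was not tested.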

How the data were processed

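Cells were sorted from mouse breast tumours, and 15 ng of total RNA per library was amplified before sequencing, per the labels' protocols, which can alter the share of reads a gene gets. The deposited values are FPKM per gene as made by the authors. Tools named in the submitters' processing notes, without roles, are TopHat 1.4.0, Cufflinks, Cuffdiff and CASAVA 1.8.2, and the build named there is mm9, although the heading of the locus column gives a human build. Of 19942 genes compared with GRCm38, nearly all starts differed as between builds. Where they nearly coincided, the listed start was 1 below for 197 genes and equal for 11, so starts were taken to count from 0 and 1 was added. Of the 61 genes, 6 have rows of several identifiers and 12 share a listed locus with another gene. Those 12 are Ccna2, Ccnd2, Ccnd3, Ccne2, Ccnf, Ccnt1, Cdk7, Cdk13, Cdk17, E2f5, Rb1 and Rbl2.

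FPKM are not counts, so no count model was fitted. Depth was read from short receptor genes (locus below 1.5 kb), where a value times length clustered at 0.0476 FPKM × kb in TIC (23 genes) and 0.0463 in NTC (39 genes), sought between 0.035 and 0.065, so it is rough. An exact 0 is given as listed at 0. A pseudocount of 1 FPKM, a minimum mean of 1 FPKM and a fold of 2 were used, in Python 3.11.15 with pandas 2.3.3. The ratio and the 2-fold count alone were run on simulated data without noise. That run checks the code, and not how far low or noisy values can be relied on. Every measured gene of the set was named, and up to 3 and 2 genes of each list by the size of their ratio. The genes and lists were chosen with earlier results of these data known. Alternatives were other pseudocounts, filters, scalings and folds, and leaving out uncertain rows.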

Additional observations from a re-analysis of the deposited data

How the results depend on the processing

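Of the 16 genes at least 2-fold different, 9 (Ccnd2, Cdkn1c, Cdkn2b, Cdk14, Cdk17, Ccng2, Rb1, Cdk6 and Ccnb2) stayed past 2-fold under every alternative that kept them. The number past 2-fold upward lay between 5 and 7 in all alternatives. With a pseudocount of 5 FPKM, only 4 were at least 2-fold lower, since Cdk19, Cdkn1b, Cdkn2c, Cdkn3 and E2f2 came within 2-fold, as did Cdkn2a among the higher genes. With a fold of 1.5, 15 were lower. With a pseudocount of 0.1, E2f5 passed 2-fold (-1.10). Centring on the median gene gave the set a median of -0.013, and equal sums gave -0.018. For the S phase list, a pseudocount of 5 gave 11 genes lower and a median of -0.77, centring a median of -0.85 and equal sums one of -0.85. For the mitosis list, 1 gene was lower with a pseudocount of 5 (median -0.46), with centring (-0.43) and with equal sums (-0.43). The DREAM list had 0 genes lower with a pseudocount of 5 (median -0.15), with centring (-0.20) and with equal sums (-0.25), 1 lower at a mean of at least 5 FPKM, and a median of -0.47 with a pseudocount of 0.1. The p53 list had medians of 0.65 (pseudocount of 5), 0.55 (no filter), 0.92 (centring) and 0.93 (equal sums). The other CDK regulators had 3 genes lower with a pseudocount of 0.1 and medians of -0.083 (centring) and -0.088 (equal sums). Partners of the transcription CDKs had medians of -0.24 and -0.22, and the mitogen-response genes -0.16 and -0.14, with centring and with equal sums. A larger pseudocount draws low genes toward 0 by its construction, and both scalings remove the shift of the median gene. Leaving out the genes that share a listed locus, chosen after seeing the data, left 5 higher and 8 lower. No paired analysis was possible because each group has 1 library. Ccnd2 and Cdkn2a rest on few reads per kb in NTC, so the size of their ratios is imprecise.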

Other observations

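Some relatives of these genes fall outside the symbols used and were looked up after their values were seen. Ccnjl, a cyclin J-like gene, had 59.2 FPKM in TIC and 3.07 FPKM in NTC, whereas Ccnj itself was level. Cdk11b, a kinase of splicing, had 21.9 FPKM in TIC and 27.6 FPKM in NTC, and the CDK-like gene Cdkl2 had 1.45 FPKM in TIC and 4.06 FPKM in NTC.

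Neighbours of the inhibitor genes that were higher in TIC did not all have the same direction. On distal chromosome 7, where Cdkn1c lies among imprinted genes, H19 had 37.3 FPKM in TIC and 0.446 FPKM in NTC and Phlda2 had 10.1 FPKM in TIC and 2.98 FPKM in NTC. Slc22a18, next to Cdkn1c, had 5.0003 FPKM in TIC and 12.5 FPKM in NTC, and Kcnq1, whose listed locus is also that of Kcnq1ot1, had 0.0437 FPKM in TIC and 4.85 FPKM in NTC. Kcnq1ot1 had 0.910 FPKM in TIC and 2.62 FPKM in NTC, and Igf2 1.01 FPKM in TIC and a listed value of 0 in NTC. On chromosome 4, Mtap, near Cdkn2a and Cdkn2b, had 30.1 FPKM in TIC and 11.4 FPKM in NTC.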
